A study of Mus musculus with 10 samples.

Results

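10 genes of multiciliated cell formation were followed across the lungs of control mice and of mice labelled as epithelial knockouts of IRE1α, a sensor of unfolded proteins in the endoplasmic reticulum. They are the transcription factors Foxj1, Rfx2, Rfx3, Myb and Trp73, the geminin relatives Mcidas and Gmnc, and the centriole amplification genes Ccno, Deup1 and Cdc20b. They were chosen by name, and all 10 were found by Entrez identifier among the 27179 genes of the count table. Of the 10, 9 were expressed enough to test and Cdc20b was not. None of the 9 passed the threshold between the groups. Deup1 had the largest difference, at 1.93 ± 0.82 CPM (counts scaled to library size with TMM factors; SD, n = 5) in control lungs and 3.96 ± 1.49 CPM (SD, n = 5) in knockout lungs, without passing after adjustment over all genes.

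Whole-lung RNA of 10 mice was sequenced as polyadenylated mRNA. The 5 control mice (Flox) carried floxed IRE1α alleles (IRE1α fl/fl) with both Shh alleles unmodified (Shh +/+). The 5 knockout mice (EpithelialKO) carried the same floxed alleles together with 1 Shh allele that expresses Cre (Shh Cre/+). Cre was therefore present, and 1 Shh allele modified, in the knockout group only, so neither can be told apart from the IRE1α knockout. Shh-driven Cre acts in the lung epithelium as a whole, ciliated cells being a small part of it. The labels used here state no age, sex or batch. Totals ran from 14983829 to 21224412 counts per mouse. Ern1, which encodes IRE1α, averaged 16.8 CPM (SD 5.28) in the controls and 17.3 CPM (SD 6.52) in the knockouts, so the whole-gene counts do not check the genotype labels. Flox mice 4 and 6 had 3949 and 4866 counts of Xist, the RNA of the inactive X chromosome, and 0 Y-linked counts, while in the other 8 mice Xist had 2 to 61 counts and Y-linked genes 2462 to 3575. No EpithelialKO mouse had such counts, so sex, as read from them, is partly confounded with group. Log2 fold changes of the 10 genes and list medians that moved by over 1.5 times, or changed sign, without those 2 mice are given both ways below.

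Multiciliated cells of the airway carry many motile cilia, each on a basal body, and so must make many centrioles without dividing. GEMC1 (Gmnc) and multicilin (Mcidas) act at the top of this programme by binding E2F4 and E2F5, and they switch on Foxj1, Myb, Ccno, Deup1 and Trp73. FOXJ1 and the RFX factors then drive the genes of the motile cilium, while DEUP1, cyclin O and CDC20B serve the deuterosome, the structure on which most of the new centrioles form. The early regulators are expressed in differentiating cells, whereas Foxj1 stays on in mature ciliated cells, so that the former are normally scarce in a mature airway.

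Levels of different genes were compared per kilobase of exon (the union of GENCODE exons). In Flox lungs Foxj1 stood at 17.3 ± 4.68 CPM per kilobase (SD, n = 5). Rfx2 came next at 2.01 ± 0.31, followed by Ccno at 1.28 ± 0.73, Myb at 1.05 ± 0.30, Trp73 at 1.01 ± 0.49 and Rfx3 at 0.93 ± 0.12 CPM per kilobase (SD, n = 5 each). Deup1 was at 0.58 ± 0.25, Gmnc at 0.39 ± 0.16, Mcidas at 0.27 ± 0.14 and Cdc20b at 0.17 ± 0.14 CPM per kilobase. Foxj1 was clear of all the others. Below it, the means of Rfx2 and Ccno and those of Rfx3 and Deup1 differed by more than either SD, and every other pair of neighbours in the order differed by less than the larger SD. The depth behind these values differed widely, from 529 to 1322 Foxj1 counts per mouse down to 4 to 25 for Mcidas and 0 to 14 for Cdc20b.

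Set against the whole transcriptome, the comparison of the groups gave no call among these genes. Of 15301 genes tested with edgeR's quasi-likelihood test, 6 passed an adjusted p of 0.05 (0.0392%), and 0 of the 9 did. At an unadjusted p under 0.05 stood 1 of the 9, Deup1, against 12.4% of all genes, which is about the share that the background gives. The Wald test of DESeq2 called 2.21% of the genes it adjusted and 0 of the 9, of which it left Mcidas, Gmnc and Deup1 without an adjusted p. In none of the 9 did the 2 groups separate without overlap, as they did in 3.12% of all genes. The log2 fold change of EpithelialKO over Flox was above 0 in 9 of 9, against 50.1% of all genes, with a median of 0.24 beside 0.00084 over all genes tested. Without Flox mice 4 and 6 it was above 0 in 7 of 9, with a median of 0.12, and without EpithelialKO mouse 17 the median was 0.14. The 9 genes were measured in the same mice, so their signs are not independent of each other. They were also chosen with earlier results of these data known. In whole lung, a difference in the number of cells of a type and one in RNA per cell cannot be told apart.

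**Figure D1:**
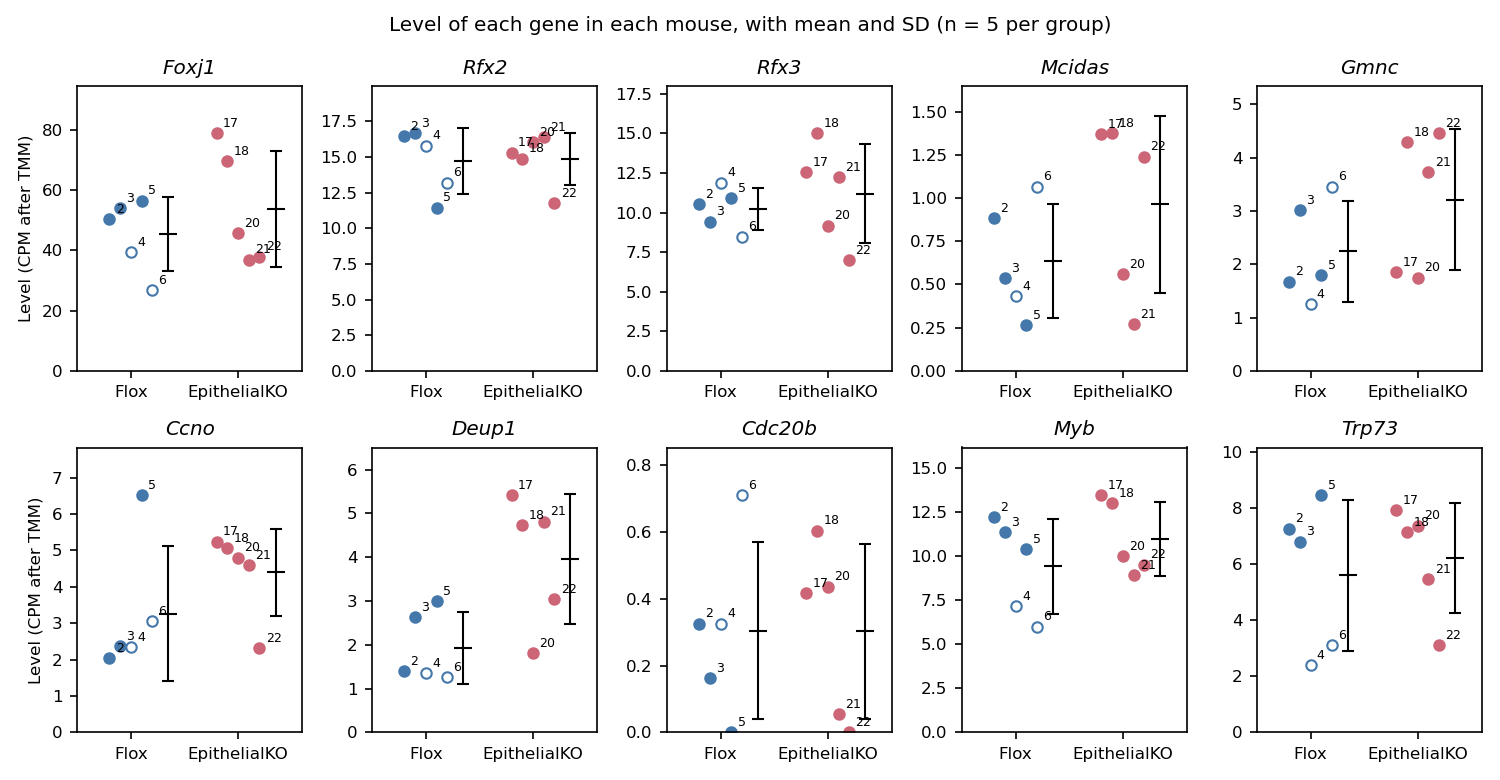
Level of each of the 10 genes in each mouse, in CPM after TMM scaling, with the mouse number beside each point and the mean and SD of each group (n = 5) at its right; open points are Flox mice 4 and 6. The groups overlap in every panel, and 4 of the 5 EpithelialKO mice lie above the Flox mean for Deup1, as for Rfx2, Ccno and Myb.

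Gmnc and Mcidas, at the head of the programme, were low and variable. Gmnc (Entrez 239789, GRCm38 chromosome 16, 26957235 to 26991675) had 1.67, 3.02, 1.25, 1.80 and 3.45 CPM in Flox mice 2, 3, 4, 5 and 6. In EpithelialKO mice 17, 18, 20, 21 and 22 it had 1.85, 4.29, 1.75, 3.73 and 4.45 CPM. The EpithelialKO mice thus fell into 3 with values above every Flox mouse and 2 within the Flox range. The log2 fold change was 0.52 ± 0.39 (SE), with an edgeR adjusted p of 0.624 and a 95% interval from -0.30 to 1.34. Mcidas (Entrez 622408, chromosome 13, 112993581 to 113000394) lay between 0.27 and 1.07 CPM in Flox and between 0.27 and 1.37 CPM in EpithelialKO. Its 4 to 25 counts per mouse alone give a counting error of 26.2% at the mean count. With a log2 fold change of 0.57 ± 0.59 (SE) and an interval from -0.66 to 1.81, differences of up to 3.51-fold in EpithelialKO could not be told from none at this depth.

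Trp73 encodes p73, a p53 relative that multiciliated cells require, and it differed more between mice than between groups. Trp73 (Entrez 22062, chromosome 4, 154056249 to 154139875) had 7.26, 6.79, 2.39, 8.45 and 3.10 CPM in Flox mice 2, 3, 4, 5 and 6, and 7.92, 7.14, 7.36, 5.46 and 3.10 CPM in EpithelialKO mice 17, 18, 20, 21 and 22. The 3 mice Flox 4, Flox 6 and EpithelialKO 22 were thus well under the other 7. Between the groups the log2 fold change was 0.15 ± 0.34 (SE, edgeR adjusted p = 0.906) and became -0.27 without Flox mice 4 and 6. An antisense gene, Trp73os, lies across the locus, and the strand setting of the counting is not given in the sources used here, so its reads may be included.

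Foxj1, the regulator of motile cilium genes, is the most abundant of the 10 per kilobase. Foxj1 (Entrez 15223, chromosome 11, 116330704 to 116335499) had 50.4, 54.1, 39.4, 56.4 and 26.9 CPM in Flox mice 2, 3, 4, 5 and 6. In EpithelialKO mice 17, 18, 20, 21 and 22 it had 78.8, 69.6, 45.7, 36.9 and 37.9 CPM. EpithelialKO mice 17 and 18 were above all Flox mice, and the other 3 lay within the Flox range. The coefficient of variation was 27.0% in Flox and 35.7% in EpithelialKO against a counting error of 3.36%, so that the spread between mice far exceeded counting error. The log2 fold change was 0.24 ± 0.25 (SE), the edgeR adjusted p 0.749 and the 95% interval -0.31 to 0.80, which spans 0.806-fold to 1.74-fold. Without Flox mice 4 and 6 the log2 fold change was 0.0042, and without EpithelialKO mouse 17 it was 0.065.

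Myb encodes c-MYB, which acts during centriole amplification and is also known from blood progenitors and lymphocytes. Myb (Entrez 17863, chromosome 10, 21124930 to 21160984) had 12.2, 11.4, 7.17, 10.4 and 5.99 CPM in Flox mice 2, 3, 4, 5 and 6, and 13.5, 13.0, 9.98, 8.92 and 9.52 CPM in EpithelialKO mice 17, 18, 20, 21 and 22. EpithelialKO mice 17 and 18 were the highest, as they were for Foxj1, and Flox mice 4 and 6 were the lowest of all 10. The log2 fold change was 0.22 ± 0.22 (SE, edgeR adjusted p = 0.729), and -0.04 without Flox mice 4 and 6. An annotated antisense gene overlaps Myb, too.

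The RFX factors bind the X-box of ciliary promoters, and RFX2 and RFX3 work with FOXJ1. Rfx2 (Entrez 19725, chromosome 17, 56775897 to 56831008) varied least over the 10 mice of the tested genes (SD of its centred log2 CPM 0.19), with 11.4 to 16.7 CPM in Flox and 11.8 to 16.4 CPM in EpithelialKO. At 0.01 ± 0.15 (SE), its log2 fold change had an edgeR adjusted p of 0.984 and a 95% interval from -0.31 to 0.34, the narrowest of the set, and it was 0.00036 without Flox mice 4 and 6. Rfx3 (Entrez 19726, chromosome 19, 27761721 to 28014669) ranged from 8.48 to 11.9 CPM in Flox. Its EpithelialKO values spread more widely, since mouse 22, at 6.99 CPM and 124 counts, was the lowest and mouse 18, at 273 counts, the highest of all 10 mice in CPM. Its log2 fold change was 0.13 ± 0.20 (SE, edgeR adjusted p = 0.847). An annotated antisense gene and a pseudogene on the opposite strand overlap Rfx3, and their reads may be included. Both genes are also known from cells without motile cilia.

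**Figure D2:**
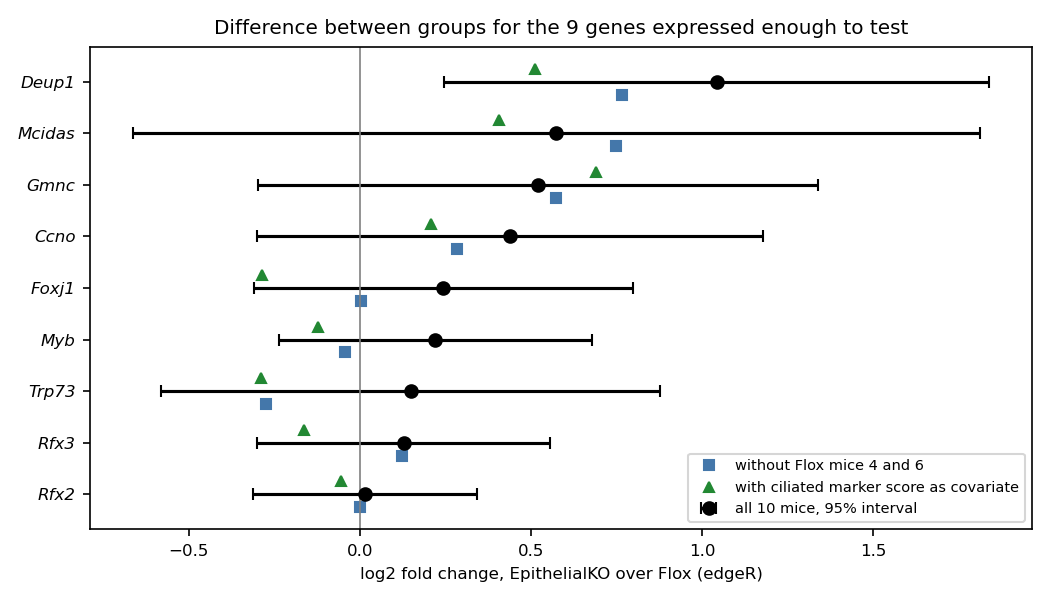
Log2 fold change of EpithelialKO over Flox for the 9 tested genes, with 95% intervals from all 10 mice (black), and the estimates without Flox mice 4 and 6 (squares) and with the ciliated marker score, the mean centred log2 CPM of 25 ciliated cell markers, as a covariate (triangles). The interval of Deup1, from 0.25 to 1.84, is the one that lies above 0, and the triangles of Foxj1, Myb, Trp73, Rfx3 and Rfx2 lie below 0.

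Deup1 encodes the scaffold of the deuterosome. Deup1 (Entrez 234964, chromosome 9, 15559864 to 15628351) had 1.40, 2.64, 1.36, 3.00 and 1.27 CPM in Flox mice 2, 3, 4, 5 and 6, from 25 to 49 counts. In EpithelialKO mice 17, 18, 20, 21 and 22 it had 5.42, 4.73, 1.81, 4.81 and 3.04 CPM, from 29 to 91 counts. In 4 of 5 EpithelialKO mice the level exceeded that of every Flox mouse, mouse 22 by little, and mouse 20 lay within the Flox range. The log2 fold change was 1.04 ± 0.38 (SE), or 2.06-fold, with an unadjusted p of 0.0133, an edgeR adjusted p of 0.264 and a 95% interval from 0.25 to 1.84. It was 0.77 without Flox mice 4 and 6 (edgeR adjusted p = 0.731) and 0.51 with the ciliated marker score as a covariate (edgeR adjusted p = 0.712). An antisense gene, 4930540M03Rik, overlaps Deup1.

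Ccno encodes cyclin O, which multiciliated cells need to amplify centrioles. Ccno (Entrez 218630, chromosome 13, 112987802 to 112990778) had 2.05, 2.37, 2.34, 6.52 and 3.05 CPM in Flox mice 2, 3, 4, 5 and 6, and 5.24, 5.05, 4.81, 4.60 and 2.31 CPM in EpithelialKO mice 17, 18, 20, 21 and 22. In each group 1 mouse stood apart, Flox 5 above the other 4 and EpithelialKO 22 below the other 4. Flox 5 was above every EpithelialKO mouse, and EpithelialKO 22 was within the range of the other Flox mice. Over all mice the log2 fold change was 0.44 ± 0.35 (SE, edgeR adjusted p = 0.651). It was 0.84 without Flox mouse 5 (unadjusted p = 0.0149, edgeR adjusted p = 0.202), 0.28 without Flox mice 4 and 6, and 0.21 and 0.063 with the ciliated and club marker scores as covariates.

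Cdc20b, whose product acts in the release of centrioles from deuterosomes, was too low to test. Cdc20b (Entrez 238896, chromosome 13, 113034975 to 113121019) had 7, 3, 6, 0 and 14 counts in Flox mice 2, 3, 4, 5 and 6 and 7, 11, 7, 1 and 0 counts in EpithelialKO mice 17, 18, 20, 21 and 22. The sums were 30 and 26 counts, in which reads of the opposite-strand genes inside Cdc20b may be included. The filter asked for 0.541 CPM in 5 mice, and 2 mice reached it. Counts of 0 in Flox mouse 5 and EpithelialKO mouse 22 allow up to 3.69 counts by the exact Poisson interval (95%, counting error only). In a fit without the filter, over 20950 genes, its log2 fold change was -0.03 ± 1.13 (SE, edgeR adjusted p = 0.996), with an interval from -2.34 to 2.29 that leaves the direction undetermined at this depth.

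Ccno, Mcidas and Cdc20b are neighbours on 1 strand of chromosome 13. From the start of Ccno, that of Mcidas lies 6.0 kilobases and that of Cdc20b 47.3 kilobases away in the GENCODE annotation. Introns of Cdc20b hold the precursors of the miR-449 family, microRNAs known from multiciliated cells, where they target Notch pathway transcripts. Their mature 5′ arms are shown because the seed, bases 2 to 8, is the same in both. Sequences are those of RefSeq (GRCm38.p6), at chr13:113037549-113037570 and chr13:113036008-113036028 on the plus strand, with the seed in capitals.
mmu-miR-449a-5p: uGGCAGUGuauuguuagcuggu
mmu-miR-449c-5p: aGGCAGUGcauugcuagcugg
Libraries of polyadenylated RNA do not measure mature microRNAs, so the level of miR-449 was not analysed here. Of 10 other genes picked around the cluster, 9 were tested, 3 had a log2 fold change above 0 and none passed, with a median of -0.18. With Flox mice 4 and 6 left out the median became 0.0096, with Flox mouse 4 alone left out -0.085, and -0.088 with a filter of 1 CPM in 5 mice. Mtrex, an RNA helicase of the exosome, had 0.24 ± 0.10 and the endothelial gene Esm1 -0.37 ± 0.18 (SE, edgeR adjusted p = 0.32 and 0.417). Gpx8, named for its place, which lies inside Cdc20b on the opposite strand, averaged 58.8 CPM in the controls and 61.7 CPM in the knockouts, far above Cdc20b itself.

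Promoters of some of these genes hold the core letters of the X-box. Windows of 250 bases before a RefSeq transcript start were at hand for 9 of the 10 genes, as 12 windows, some of which lie inside the whole gene span because a gene can have several starts. The motif GTTGCC was searched on both strands, and 4 of the 12 windows held it, against 10.4% of 32851 promoter windows of the same length. The 4 are shown as 30 bases around the match (GRCm38.p6, in the direction of the gene), with the match in capitals, at chr17:56831107-56831136 (minus strand), chr13:112993661-112993690 (plus), chr13:112987571-112987600 (plus) and chr9:15627908-15627937 (minus).
Rfx2: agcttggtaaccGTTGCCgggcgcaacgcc
Mcidas: gggggaagccagGTTGCCaggttggttaac
Ccno: acccgggctgcgGTTGCCacggtgacgaca
Deup1: ccgcgtctccatGGCAACccactgggaacc
The matches of Mcidas and Deup1 lie inside the gene spans given above. In Deup1 the match is on the opposite strand and reads GGCAAC. The bases after the RefSeq starts of its windows were not found as an unbroken stretch in a GENCODE transcript. Whether the annotations place its start differently was not tested. An E2F motif (TTCCCGC or TTGGCGC, both strands) was in 3 of the 12 windows, 1 each of Deup1, Cdc20b and Trp73, against 5.62% of all windows. The forkhead motif TGTTTAC was in 0 of the 12, against 3.17%. The 3 motifs do not contain one another. A match describes these letters only, and the counts say nothing of whether a factor binds there.

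Over the mice, the members did not share 1 profile. Likeness was measured as the root-mean-square difference between the log2 CPM of 2 genes (prior count 2) over the 10 mice, each gene centred on its own mean. Myb differed from Foxj1 by 0.19, which placed it 10th among 14494 tested genes with a mean of at least 1 CPM, whose median difference from Foxj1 was 0.51. Rfx3 was at 0.36, Trp73 at 0.41 and Rfx2 at 0.45. A gene that did not vary over the mice would be at 0.44, the amount by which Foxj1 varied about its own mean. Ccno, Deup1 and Gmnc were at 0.55, 0.59 and 0.81, beyond the median gene. Counting error at the mean count of these 3 was 12.2%, 13.8% and 14.2%, and its part in their differences was not tested. Mcidas averaged under 1 CPM and was not ranked. Among the 36 pairs of tested members, Foxj1 and Myb were the most alike, at 0.19 against 0.44 and 0.35 by which they varied about their own means. Rfx2 and Rfx3 came next at 0.28, which is more than the 0.19 by which Rfx2 itself varied.

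**Figure D3:**
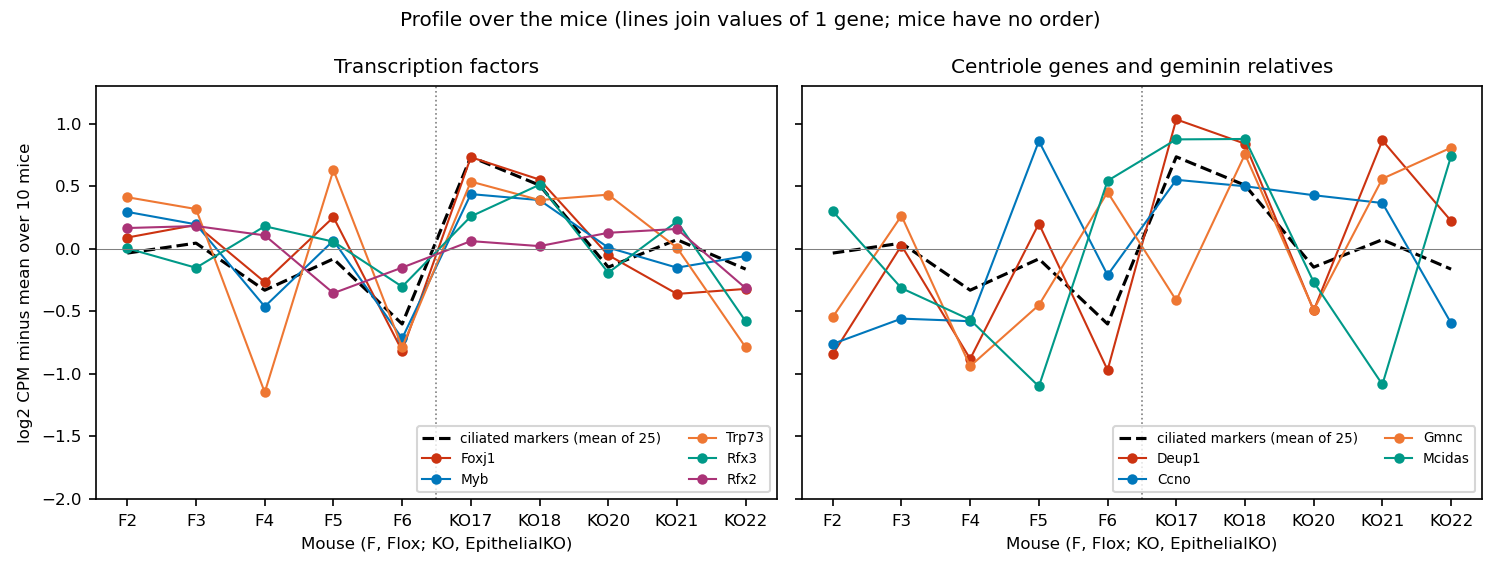
Log2 CPM of each tested gene minus its mean over the 10 mice, for the transcription factors (left) and for the centriole genes and geminin relatives (right), with the mean of 25 ciliated cell markers as a dashed line; the dotted line divides Flox from EpithelialKO. Foxj1 and Myb are lowest in Flox mouse 6 and highest in EpithelialKO mouse 17, as the ciliated markers are, while Mcidas is lowest in Flox mouse 5 and EpithelialKO mouse 21.

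Of the 10 other genes nearest to Foxj1, 1 was on the list of ciliated markers. This was Ccdc153, the nearest, at 0.13. Dnah3 and Dnah10, heavy chains of axonemal dynein, were at 0.16 and 0.17, and Ccdc113 and Cfap43, of the ciliary axoneme, at 0.17 and 0.18. The rest were the ubiquitin ligase Lnx1 (0.15), the potassium channel subunit Lrrc26 (0.17), Lrrc10b (0.17), the mitochondrial ribosomal gene Mrps17 (0.17) and the receptor tyrosine kinase Tyro3 (0.19). None of the 10 passed the threshold between the groups. Lrrc26 had the lowest unadjusted p, 0.048 (edgeR adjusted p = 0.399).

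Myb was set beside the markers of other cells that express it. Its difference from the mean profile of the ciliated markers was 0.19 and from that of the club markers 0.21. From the profiles of T cell, B cell, progenitor and mast cell, and proliferation markers it was 0.55, 0.54, 0.53 and 0.50, each larger than the 0.35 by which Myb varied about its own mean. The summed T cell markers lay between 169 and 279 CPM in Flox and between 155 and 267 CPM in EpithelialKO, and the B cell markers between 167 and 374 and between 120 and 223 CPM. All 10 T cell and all 7 B cell markers were tested, with 1 and 0 log2 fold changes above 0 and medians of -0.21 and -0.47. Without Flox mice 4 and 6 these medians were 0.026 and -0.31. Leaving out mouse 4 alone gave -0.10 and -0.28. The progenitor and mast cell markers lay between 379 and 448 CPM in Flox and between 300 and 399 CPM in EpithelialKO. Of 7 tested, 2 had a log2 fold change above 0, with a median of -0.25 that became 0.0092 without Flox mice 4 and 6. With mouse 6 alone left out it was -0.029. The proliferation markers lay between 175 and 245 CPM in Flox and between 214 and 228 CPM in EpithelialKO, with a median of 0.05 over 15 genes. It was 0.31 without Flox mice 4 and 6, and leaving out 1 mouse gave -0.062 (without Flox mouse 5) to 0.15 (without Flox mouse 6). The share of Myb RNA that comes from each cell type was not tested.

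The 25 markers of ciliated cells summed to between 2450 and 3518 CPM in Flox and between 2982 and 4293 CPM in EpithelialKO, where 4 of 5 mice were above the highest Flox mouse, mouse 21 only just. All 25 were tested, and 24 had a log2 fold change above 0, against 50.1% of all genes. Of these, 10 had an unadjusted edgeR p under 0.05, against 12.4% of all genes in either direction, and none passed after adjustment. Signs within this list and those below are not independent, because the genes were measured in the same mice. The lists were also chosen with earlier results of these data known, so their shares are no independent contrast with all genes. The median log2 fold change of the 25 was 0.41. It was 0.26 without EpithelialKO mouse 17 and also 0.26 without Flox mice 4 and 6. Pifo, a gene of cilium assembly and disassembly, had 0.70 ± 0.22 and the radial spoke gene Rsph4a 0.66 ± 0.23 (SE, edgeR adjusted p = 0.208 and 0.249). Per 1000 CPM of the summed ciliated markers, Foxj1 averaged 15.2 ± 3.48 CPM in the controls and 14.4 ± 4.52 CPM in the knockouts (SD, n = 5 each). Myb was at 3.12 ± 0.56 and 2.96 ± 0.55 CPM, and Deup1 at 0.65 ± 0.26 and 1.05 ± 0.36 CPM on the same scale. In Flox, Sec14l3 and Tppp3 made up 88.8% of the summed markers, so the ratio is in effect one to these 2 genes, whose log2 fold changes were 0.31 and 0.34. The ciliated marker score weights all 25 markers alike. As most of these were themselves above 0, a fit with the score can take up part of a group difference. With the ciliated marker score as a covariate, 4 of the 9 genes had a log2 fold change above 0, Gmnc, Mcidas, Ccno and Deup1, and none passed. Foxj1 then had -0.28 ± 0.14 (SE, unadjusted p = 0.0576, edgeR adjusted p = 0.517).

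**Figure D4:**
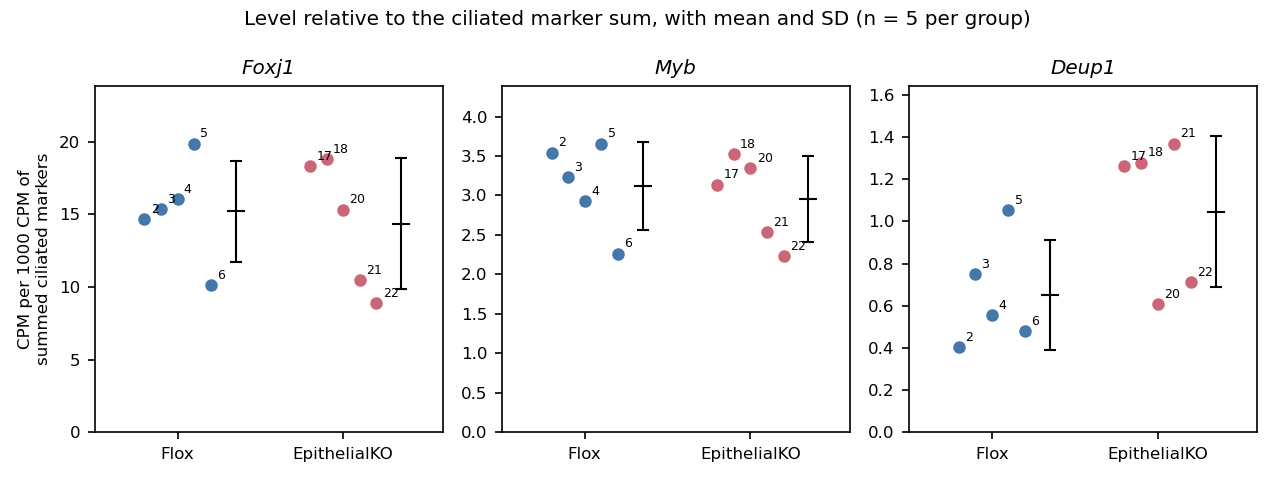
Foxj1, Myb and Deup1 in each mouse per 1000 CPM of the summed ciliated markers, with mouse numbers and the mean and SD of each group (n = 5). For Foxj1, Flox mouse 6 and EpithelialKO mice 21 and 22 lie lowest, at 10.1, 10.5 and 8.90.

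Markers of other epithelial cells were set beside them. The 12 club cell markers summed to between 22560 and 48429 CPM in Flox and between 35311 and 55599 CPM in EpithelialKO. This list, too, was chosen with earlier results of these data known. Of its log2 fold changes 12 of 12 were above 0, against 50.1% of all genes. Of the 12 markers, 6 had an unadjusted edgeR p under 0.05, against 12.4% of all genes in either direction, and none passed the threshold. The median log2 fold change was 0.49, and it was 0.29 without EpithelialKO mouse 17 and 0.27 without Flox mice 4 and 6. The GABA receptor subunit gene Gabrp had 0.64 and the secreted factor gene Retnla 0.92 (edgeR adjusted p = 0.0798 and 0.106). With the club marker score as a covariate, Foxj1 had -0.60 ± 0.16 (SE, unadjusted p = 0.00181, edgeR adjusted p = 0.302) and Gmnc 1.17 (unadjusted p = 0.0416, edgeR adjusted p = 0.488). Of the 7 basal cell markers 2 were tested, Aqp3 and Dapl1, and the others, Trp63 and the keratins Krt5 and Krt14 among them, were too low. The 7 summed to between 3.06 and 6.52 CPM in Flox and between 6.37 and 15.4 CPM in EpithelialKO, with the highest sums in mice 17 and 21. The water channel gene Aqp3 averaged 0.721 CPM in the controls and 1.78 CPM in the knockouts (edgeR adjusted p = 0.405), and the median log2 fold change of the tested pair was 0.78, or 1.23 without Flox mice 4 and 6. The 10 AT2 markers summed to between 41475 and 49725 CPM in Flox and between 49654 and 61352 CPM in EpithelialKO. At those levels the labelled tissue's main epithelial markers were present. All 10 had log2 fold changes above 0, against 50.1% of all genes, with a median of 0.24, beside 0.24 for the 9 tested members. Of the 10, 5 had an unadjusted edgeR p under 0.05, against 12.4% of all genes in either direction, and none passed after adjustment. The part of these cell types in the members' values was not tested. The fits with a marker score cannot separate it from the group, because most markers in both scores themselves had log2 fold changes above 0.

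The partners of these regulators showed no call. Of 18 such genes 15 were tested, 9 with a log2 fold change above 0 and 6 below, with a median of 0.04. With Flox mice 4 and 6 left out the median became -0.032, and with mouse 6 alone left out -0.0016. E2f5, through which GEMC1 and multicilin act, averaged 15.4 CPM (SD 1.08) over the 5 controls and 18.5 CPM (SD 1.06) over the 5 knockouts. Its log2 fold change was 0.26 ± 0.12 (SE) with an edgeR adjusted p of 0.417. Rfx7 had -0.27 ± 0.12, the airway factor Sox2 0.42 ± 0.22 and the epithelial factor Grhl2 0.23 ± 0.13 (SE, edgeR adjusted p from 0.394 to 0.497).

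The general centriole genes, which all cells with centrioles use, were split in sign. Of 26 tested, 10 had a log2 fold change above 0 and 16 below, with a median of -0.03 and none past the threshold. Leaving out EpithelialKO mouse 22 turned it to 0.019, and leaving out Flox mice 4 and 6 to 0.0092. Plk4, the kinase that starts centriole duplication, had -0.01 ± 0.19 and Cep152, which recruits it, -0.11 ± 0.20 (SE). Cep63, the paralog of Deup1 at ordinary centrioles, had -0.09 ± 0.15 (SE). These 3 were named after their values were seen. Ccp110 and Cep97, which together cap centrioles, had 0.34 ± 0.10 and -0.50 ± 0.19 (SE, edgeR adjusted p = 0.173 and 0.282), and the distal appendage gene Cep164 had -0.24 ± 0.11 and the centrin Cetn3 0.21 ± 0.10. Whether Deup1 differed from these genes in its response was not tested. Of 19 genes of intraflagellar transport, which builds cilia of every kind, 15 were above 0 with a median of 0.13, which was 0.075 without EpithelialKO mouse 17. Ift74 had 0.47 ± 0.17 and the dynein subunit Dync2li1 0.37 ± 0.16 (SE, edgeR adjusted p = 0.258 and 0.363), and none of the 19 passed.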

How the data were processed

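The libraries were made from Trizol-extracted RNA by oligo(dT) selection and random-hexamer priming, per the labels' protocols. The submitters' processing notes name cutadapt, HISAT2 and the build GRCm38. For tool versions, counting tool, annotation and strand setting, the sources used here give nothing. The deposited values are raw whole-number counts per Entrez gene, 1 column per mouse. Symbols and coordinates came from RefSeq (GRCm38.p6), matching 25275 of 27179 identifiers, and exon lengths, strands and overlaps from GENCODE M21.

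Genes were filtered with filterByExpr at its defaults (15301 kept), scaled by TMM and tested over all mice with edgeR 4.0.16 (quasi-likelihood F test, robust fit) in R 4.3.3, with Benjamini-Hochberg adjustment over all tested genes and a threshold of 0.05. The SE is the log2 fold change over the root of F. Alternatives used DESeq2 1.42.0, limma 3.58.1, other scalings and filters, marker scores as covariates and mice left out. The fit was tested on simulated data. No 2 libraries agreed within sampling noise (chi-square over its degrees of freedom at least 17.8). The labels pair no mice, and the p-values weigh a difference between the groups against the spread between mice within them.

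The genes and lists were chosen with earlier results of these data known. Text names all 10 genes, Ern1, up to 4 genes of lowest p per list (among them, those not already described elsewhere) and the 10 genes most like Foxj1; others are said to be named after their values were seen.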

Additional observations from a re-analysis of the deposited data

Results flagged for a closer look

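Ccno had a mouse far from the other 4 in each group. Flox mouse 5 was at 6.52 CPM against 2.05 to 3.05 CPM in the other Flox mice, and EpithelialKO mouse 22 was at 2.31 CPM against 4.60 to 5.24 CPM in the others of its group. The gap to the nearest mouse was 0.776 and 0.78 of the range of the group, above Dixon's 95% critical value of 0.71 for 5 samples. Chance flags about 1 in 20 groups, and 20 groups of 5 were looked at. The count of Ccno was 98 in Flox mouse 5, the library with the lowest total, and 41 in EpithelialKO mouse 22.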

How the results depend on the processing

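None of the genes was called in any of the 20 alternatives, a threshold of 0.1 among them, and the log2 fold changes of Deup1, Gmnc, Ccno and Mcidas stayed above 0 in each that tested them (Mcidas was not tested with a filter of 1 CPM in 5 mice). The Wald test of DESeq2 gave Deup1, Gmnc and Mcidas no adjusted p, so it could not call them. Its unadjusted p for Deup1 was 0.00599. Gmnc ranged from 0.37 to 1.17, highest with the club marker score, Ccno from 0.063 with that score to 0.84, and Mcidas from 0.25 with limma-voom to 0.83. Deup1 ranged from 0.51 to 1.25 and its lowest edgeR adjusted p was 0.142, without Flox mouse 5. With the ciliated marker score as a covariate the log2 fold changes were -0.28 for Foxj1, -0.12 for Myb, -0.055 for Rfx2, -0.16 for Rfx3 and -0.29 for Trp73, and with the club marker score -0.60, -0.36, -0.018, -0.11 and -0.64. Without Flox mice 4 and 6 they were -0.043 for Myb and -0.27 for Trp73, and with limma-voom Rfx2 had -0.0084. Leaving out 1 mouse gave 0.065 to 0.35 for Foxj1, 0.094 to 0.33 for Myb, -0.062 to 0.088 for Rfx2, -0.00033 to 0.26 for Rfx3 and -0.044 to 0.34 for Trp73. Over all genes, 6 calls became 279 with DESeq2, 29 with limma-voom, 34 without a count filter, 38 at a threshold of 0.1, 0 with either covariate and 0 without Flox mice 4 and 6 (1527, 1494 and 1207 genes at an unadjusted p under 0.05). Leaving out 1 mouse gave 0 to 48 calls, 48 without Flox mouse 5 and 0 without any other (1444 to 1960 genes at an unadjusted p under 0.05). The cause was not tested. The 10 genes most like Foxj1 were the same 10 with a prior count of 0.5 and with DESeq2 size factors. No paired analysis was possible because the groups share no mouse numbers. Depth limits Mcidas and Cdc20b most.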
